A study of Phyllostachys violascens with 18 samples.

Results

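Expression of 4 genes of chlorophyll breakdown was followed across the leaves of a bamboo and of its colour variant. They were chlorophyllase-2 (PH02Gene23026), the pheophytinase genes PH02Gene22037 and PH02Gene37848, and a red chlorophyll catabolite reductase (PH02Gene27203), 4 of 42520 genes in the deposited table. They were chosen by gene ID with results of these libraries already known, and which values were used in the choice is not recorded. Differences between plant types are treated here as used, and are given as a description with no test. Stage changes within a plant type are treated as not used and were tested, and their p-values rest on that assumption and on the same libraries. The names are descriptions of related genes in other grasses, and 15 further genes with a description from the same pathway were found.

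The plants were Phyllostachys violascens ‘Flavistriatus’, called variant here, and Phyllostachys violascens, called typical. Leaves were taken at 3 stages, young, immature and mature, from plants grown in a greenhouse, and each of the 6 groups had 3 libraries. The labels name leaves in the titles but culms in the tissue field, and nothing in them states that replicates were separate plants. A p-value here therefore reflects the spread among the libraries sampled, and that spread may be technical. The labels give no genotype of the variant and do not say whether whole leaves or coloured sectors were sampled.

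Chlorophyll is taken apart in a fixed order in plants. Chlorophyll b is first turned into chlorophyll a, the magnesium is removed by stay-green proteins, and the phytol tail is cut from the resulting pheophytin by pheophytinase. Chlorophyllase can cut the same tail from chlorophyll itself, and in Arabidopsis it is pheophytinase that acts in leaf senescence. Pheophorbide a oxygenase then opens the ring, which yields a red catabolite, and red chlorophyll catabolite reductase turns that phototoxic product into a harmless one. The pathway is best known from leaf yellowing and from the turnover of chlorophyll in green leaves.

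Libraries held 30268130 to 58374889 counts each, and 37595 genes had enough counts to be tested, all 4 members among them. Levels are given as FPKM, a value scaled by the authors for gene length and library size. Log2 fold changes come from the counts with edgeR, with library scaling by TMM (the trimmed mean of M values), and ± after them is the standard error. A gene was called at an adjusted p under 0.05. Summed FPKM of 32 antenna genes, which hold chlorophyll to catch light and mark green leaf tissue, lay at 1810 to 3205 in variant young, 3779 to 5161 in typical young, 4039 to 4226 in variant immature, 33829 to 40242 in typical immature, 1960 to 12000 in variant mature and 16910 to 19850 in typical mature libraries. In 51 genes of lignified tissue the sums were highest in young leaves, at 358 to 488 in variant and 430 to 523 FPKM in typical libraries, and lowest in typical mature leaves, at 52.6 to 87.6 FPKM. In 24 genes of dividing cells the sums were 419 to 1134 in variant young and 948 to 1207 in typical young, 202 to 217 in variant immature and 114 to 163 in typical immature, and 139 to 164 in variant mature and 93 to 144 FPKM in typical mature libraries. Green tissue was also marked by 6 Rubisco small chain genes and 2 Rubisco activase genes. In immature leaves the small chain sums were 4160.6 to 4178.5 FPKM in the variant and 27428.2 to 30149.5 FPKM in the typical plant. The activase sums there were 26.7 to 29.9 and 35.9 to 45.2 FPKM. From young to immature leaves the antenna and Rubisco sums rose in both plants, and the lignified and dividing sums fell. Their part in the members' step was not tested. In bulk samples, fewer cells of a type and less RNA per cell cannot be told apart. Variant mature 3 and typical mature 1 stood apart from the other 2 libraries of their groups. Mature log2 fold changes of PH02Gene22037 and PH02Gene27203 are also given without 1 of them, while shares and group means include them.

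Chlorophyllase-2 (PH02Gene23026, scaffold 5, 34434022 to 34435970, minus strand) had its highest RNA levels in mature leaves of both plants. In young leaves it had 2.94, 4.0 and 3.81 FPKM in the variant against 2.14, 1.51 and 1.59 FPKM in the typical plant. In immature leaves it had 28.5, 25.2 and 27.5 FPKM in the variant against 15, 13.3 and 16.3 FPKM in the typical plant. Every variant library was above every typical one at both stages. In mature leaves it had 34.1, 32.4 and 28.6 FPKM in the variant against 35.3, 34.7 and 31.9 FPKM in the typical plant, and the groups overlapped. By mean FPKM the order was typical mature, variant mature, variant immature, typical immature, variant young and typical young, and in it only the 2 mature groups overlapped.

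The difference in chlorophyllase-2 between the plants went with stage. Its log2 fold change of variant over typical leaves was 0.98 ± 0.16 in young, 0.41 ± 0.16 in immature and -0.42 ± 0.16 in mature leaves. The last 2 values depend on the scaling, with 0.93 and -0.080 from the counts without TMM. From young to immature leaves the gene rose by 3.02 ± 0.17 in the variant (edgeR adjusted p = 1.08e-08) and by 3.60 ± 0.17 in the typical plant (adjusted p = 1.2e-09). It rose again from immature to mature leaves in the typical plant (1.11 ± 0.16, edgeR adjusted p = 0.000133). The variant step was 0.28 ± 0.16 (edgeR adjusted p = 0.201), although each variant mature library lay above each variant immature one.

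**Figure D1:**
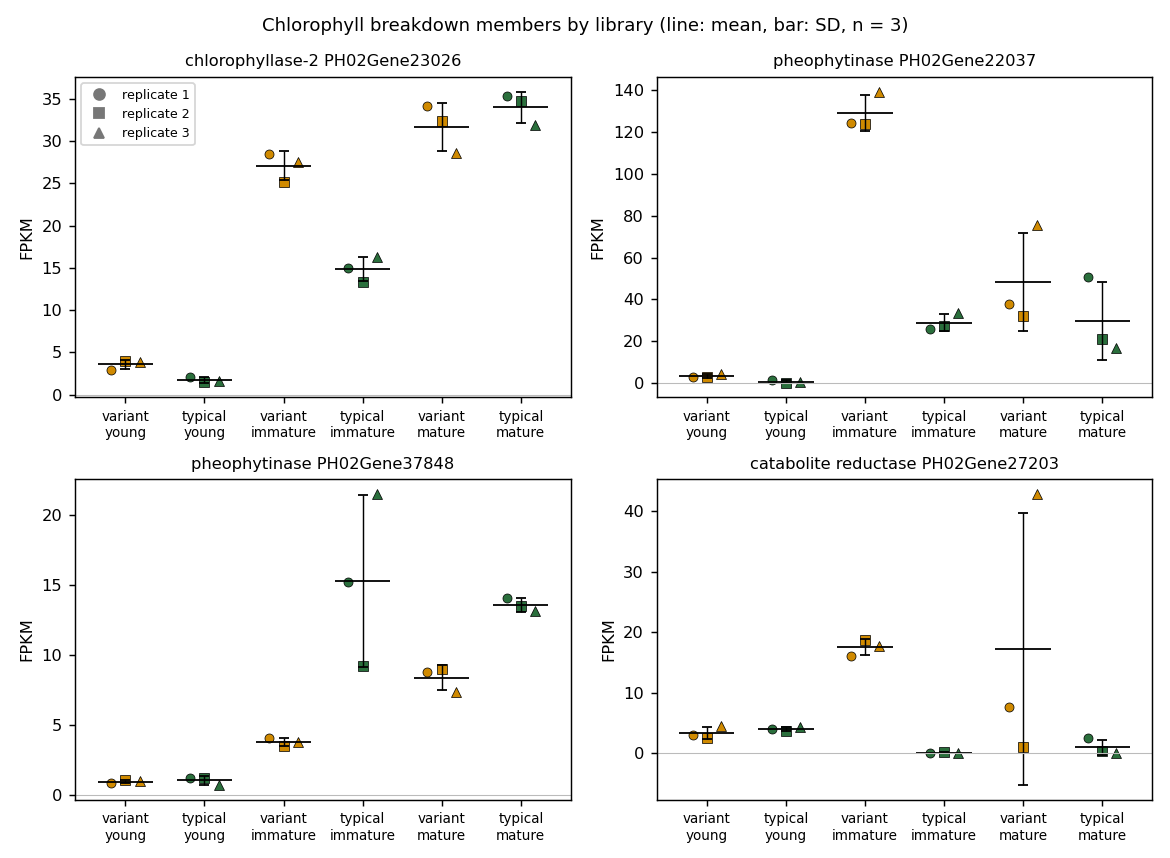
FPKM of the 4 member genes in each of the 18 libraries, with variant groups in orange and typical groups in green, the mean as a line and the SD as a bar (n = 3). Pheophytinase PH02Gene22037 reaches 124 to 139 FPKM in variant immature leaves, and the catabolite reductase spreads from 1.10 to 42.8 FPKM among variant mature libraries.

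Pheophytinase PH02Gene22037 (scaffold 17, 18073862 to 18077201, plus strand) had its highest levels in immature leaves of the variant. In young leaves it had 2.95, 3.12 and 4.40 FPKM in the variant against 1.38, 0.289 and 0.536 FPKM in the typical plant. In immature leaves it had 124.1, 124.0 and 139 FPKM in the variant against 25.8, 27.4 and 33.6 FPKM in the typical plant. The 2 plants did not overlap at either stage. In mature leaves it had 37.8, 32.1 and 75.4 FPKM in the variant against 51.0, 21.3 and 16.9 FPKM in the typical plant, and the groups overlapped. Log2 fold changes of variant over typical leaves were 2.19 ± 0.52, 1.70 ± 0.50 and 0.34 ± 0.48 in the order of the stages. Without TMM the immature value was 2.23. In young leaves the value was 3.02 without typical young 1. In mature leaves it was -0.10 without variant mature 3 and 1.06 without typical mature 1.

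The young to immature rise of PH02Gene22037 was the steepest among the members in both plants. It was 5.32 ± 0.58 in the variant (edgeR adjusted p = 2.94e-06) and 5.81 ± 0.60 in the typical plant (edgeR adjusted p = 9.59e-07). Between immature and mature leaves the gene fell in the variant, where it decreased by 1.38 on the log2 scale (edgeR adjusted p = 0.0488), and all 3 mature libraries lay below all immature ones. That call stood close to the threshold: the adjusted p lay between 0.019 and 0.143 when single libraries were left out, and it missed the threshold in 13 of 18 such fits. Without variant mature 3 the variant step was -1.82. In the typical plant the same step was -0.01 ± 0.48 (edgeR adjusted p = 1), or -0.74 without typical mature 1.

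Pheophytinase PH02Gene37848 (scaffold 4, 13742003 to 13748377, minus strand) was ordered the other way between the plants. In young leaves it had 0.863, 1.06 and 0.996 FPKM in the variant against 1.23, 1.24 and 0.721 FPKM in the typical plant, and the groups overlapped. In immature leaves it had 4.07, 3.54 and 3.79 FPKM in the variant against 15.3, 9.23 and 21.5 FPKM in the typical plant. In mature leaves it had 8.80, 9.02 and 7.42 FPKM in the variant against 14.1, 13.5 and 13.2 FPKM in the typical plant. Every variant library was below every typical one at the last 2 stages. The log2 fold change was -0.18 ± 0.27 in young, -2.47 ± 0.27 in immature and -1.02 ± 0.26 in mature leaves, or -1.94 and -0.67 at the last 2 stages without TMM.

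PH02Gene37848 rose at both steps in the variant and at the first step in the typical plant. It rose from young to immature leaves by 2.07 ± 0.27 in the variant (edgeR adjusted p = 1.68e-05) and by 4.36 ± 0.30 in the typical plant (edgeR adjusted p = 1.72e-08). At the step to mature leaves it rose again in the variant (1.19 ± 0.26, edgeR adjusted p = 0.00404), and the typical step was -0.26 ± 0.26 (edgeR adjusted p = 0.484). The variant rise did not pass when libraries that were much alike were summed (edgeR adjusted p = 0.19). By mean FPKM the typical immature and typical mature groups stood highest and overlapped, and the young groups stood lowest and overlapped.

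FPKM is scaled for length, so levels of both pheophytinase members can be set side by side. PH02Gene22037 made up 97.1% ± 0.306 of their summed FPKM in variant immature leaves, against 66.2% ± 7.54 in typical immature leaves (SD, n = 3). The share was 77.8% ± 3.47 in variant young and 38.1% ± 17.5 in typical young leaves, and 83.4% ± 6.75 in variant mature and 65.2% ± 11.6 in typical mature leaves. Shares of the variant lay above those of the typical plant in every library of young and immature leaves. In mature leaves they overlapped by 1 library, typical mature 1 at 78.3% beside variant mature 2 at 78.1%. Summed FPKM of the pair was 133 ± 8.66 in variant immature and 44.2 ± 9.66 in typical immature leaves.

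The table held 4 pheophytinase genes in all, and the other two were low after the young stage. PH02Gene47895 had 3.02 ± 0.414 FPKM in variant young and 0.468 ± 0.462 FPKM in variant immature leaves, and it fell by 2.55 on the log2 scale (edgeR adjusted p = 0.0109). In the typical plant it had 4.18 ± 0.793 FPKM in young and 1.90 ± 0.622 FPKM in immature leaves, a step that did not pass (edgeR adjusted p = 0.474). PH02Gene40560 had group means of 0.219 to 1.87 FPKM and was called in none of the 7 edgeR comparisons. The pair of members therefore held 99.2% to 99.7% of the FPKM of all 4 genes in variant immature libraries and 93.6% to 96.9% in typical immature libraries. In young leaves it held 47.2% to 52.1% in the variant and 15% to 31.6% in the typical plant. Reads shared between related genes can be moved between them by the authors' estimate, so single members are uncertain to that extent.

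**Figure D2:**
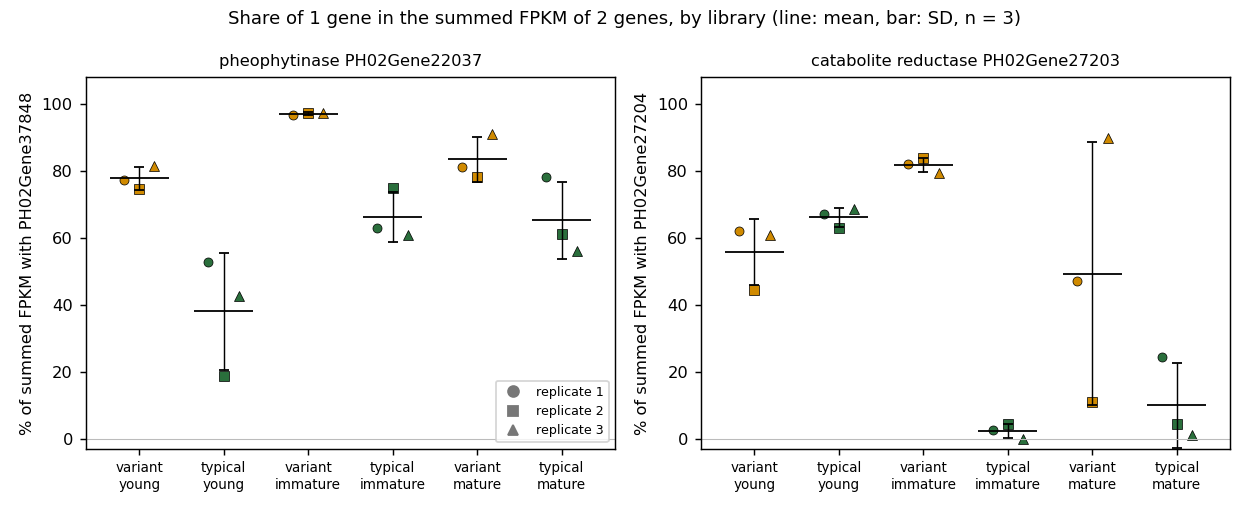
Left, the share of pheophytinase PH02Gene22037 in its summed FPKM with PH02Gene37848, and right, the share of the catabolite reductase PH02Gene27203 in its summed FPKM with PH02Gene27204, in percent for each library (line: mean, bar: SD, n = 3). In immature leaves the variant libraries lie at 96.8% to 97.4% on the left and 79.5% to 83.7% on the right, above the typical libraries at 60.9% to 74.8% and 0% to 4.43%.

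The red chlorophyll catabolite reductase PH02Gene27203 (scaffold 5, 31352773 to 31354597, plus strand) was the member whose RNA differed most between the plants in immature and in mature leaves. In immature leaves it had 16.1, 18.8 and 17.7 FPKM in the variant. In typical immature leaves it had 0.0943 and 0.15 FPKM and was listed at 0 in the third library. These typical libraries held 7 counts in all (exact Poisson 95% interval 2.81 to 14.4, counting error only), against 1178 in the variant. In young leaves it had 3.04, 2.52 and 4.50 FPKM in the variant against 3.98, 3.67 and 4.29 FPKM in the typical plant, and the groups overlapped. In mature leaves it had 7.61, 1.10 and 42.8 FPKM in the variant against 2.45, 0.431 and 0.108 FPKM in the typical plant, and the groups overlapped.

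From young to immature leaves the catabolite reductase went opposite ways in the plants. Every variant immature library lay above every variant young one, and every typical immature library lay below every typical young one. The step was -4.96 ± 1.30 in the typical plant (edgeR adjusted p = 0.00399), which passed without any single library. In the variant it was 2.49 ± 1.01 (edgeR adjusted p = 0.0468). The variant call was close to the threshold, with an adjusted p of 0.0158 to 0.128 over the 18 fits without 1 library and no call in 12 of them. The step to mature leaves was -0.02 ± 0.95 in the variant (edgeR adjusted p = 1) and 3.44 ± 1.32 in the typical plant (edgeR adjusted p = 0.0622). Without variant mature 3 the variant step was -1.95, and without typical mature 1 the typical step was 1.59. The plant type difference was -0.30 ± 0.96 in young, 7.15 ± 1.36 in immature and 3.70 ± 1.09 in mature leaves. The mature value was 1.77 without variant mature 3 and 5.55 without typical mature 1. The immature value was 6.54 without typical immature 3 and 7.85 without typical immature 2.

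A second catabolite reductase gene with the same description, PH02Gene27204, followed on the same strand 78915 bp away, with no gene of the table between them. It showed a different course. Its level was 2.63 ± 0.686, 3.91 ± 0.573 and 7.40 ± 2.14 FPKM in variant young, immature and mature leaves, and 2.03 ± 0.122, 4.21 ± 1.32 and 9.12 ± 1.41 FPKM in typical leaves (SD, n = 3). It rose at each stage step in both plants, by 0.68 ± 0.27 and 0.97 ± 0.27 in the variant (edgeR adjusted p = 0.0456 and 0.0167) and by 1.57 ± 0.28 and 1.01 ± 0.27 in the typical plant (edgeR adjusted p = 0.000188 and 0.0116). It was called in none of the 3 comparisons of plant types (edgeR adjusted p = 0.97, 0.102 and 0.115). Summed FPKM of both genes was 5.98 ± 1.28 in variant young and 6.01 ± 0.212 in typical young leaves, 21.4 ± 1.56 in variant immature and 4.30 ± 1.25 in typical immature leaves, and 24.6 ± 20.3 in variant mature and 10.1 ± 0.179 in typical mature leaves. PH02Gene27203 held 81.8% ± 2.13 of that sum in variant immature and 2.31% ± 2.22 in typical immature leaves. Reads shared between these related genes can likewise be moved by the authors' estimate, so their split is uncertain to that extent.

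Mature libraries of the same plant spread widely in both PH02Gene27203 and PH02Gene22037. Variant mature 3 had the highest mature level of each gene, and typical mature 1 the highest of the typical mature libraries. The same libraries stood apart in other genes. Summed FPKM of the antenna genes was 9983, 12000 and 1960 in variant mature libraries 1 to 3, against 16910, 19850 and 19820 in typical mature libraries. Rubisco small chain sums were 9447, 9701 and 2002 FPKM in variant mature libraries, against 16302, 13230 and 12969 FPKM in typical ones. Typical mature 1 was thus lowest of its group in antenna and highest in small chain sums. Rubisco activase sums were 31.7, 34.4 and 26.7 FPKM against 37.7, 43.8 and 46.9 FPKM. Summed FPKM of 15 SAG39 genes, cysteine proteases of senescing rice leaves, was 1055, 470.0 and 40.1 in variant mature libraries, against 22.2, 170.0 and 191 in typical mature libraries. Of these genes 6, 6 and 8 were listed at 0 in variant and 8, 7 and 7 in typical mature libraries. For 13 NAC genes of the ORE1 type, named for senescence regulators, the sums were 82.2 to 105 FPKM in variant and 30.6 to 44.0 FPKM in typical mature libraries. For 7 genes of cytosolic glutamine synthetase, which moves nitrogen out of ageing leaves, the sums were 241 to 293 FPKM in variant and 121 to 132 FPKM in typical mature libraries. Their part in the members' levels was not tested. In immature leaves the NAC sums were 100 to 111 FPKM in the variant and 23.6 to 46.0 FPKM in the typical plant, and the SAG39 sums were 88.5 to 97.4 FPKM in the variant and 50.6 to 76.4 FPKM in the typical plant. The glutamine synthetase sums overlapped there, at 227 to 228 FPKM in the variant and 203 to 309 FPKM in the typical plant.

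**Figure D3:**
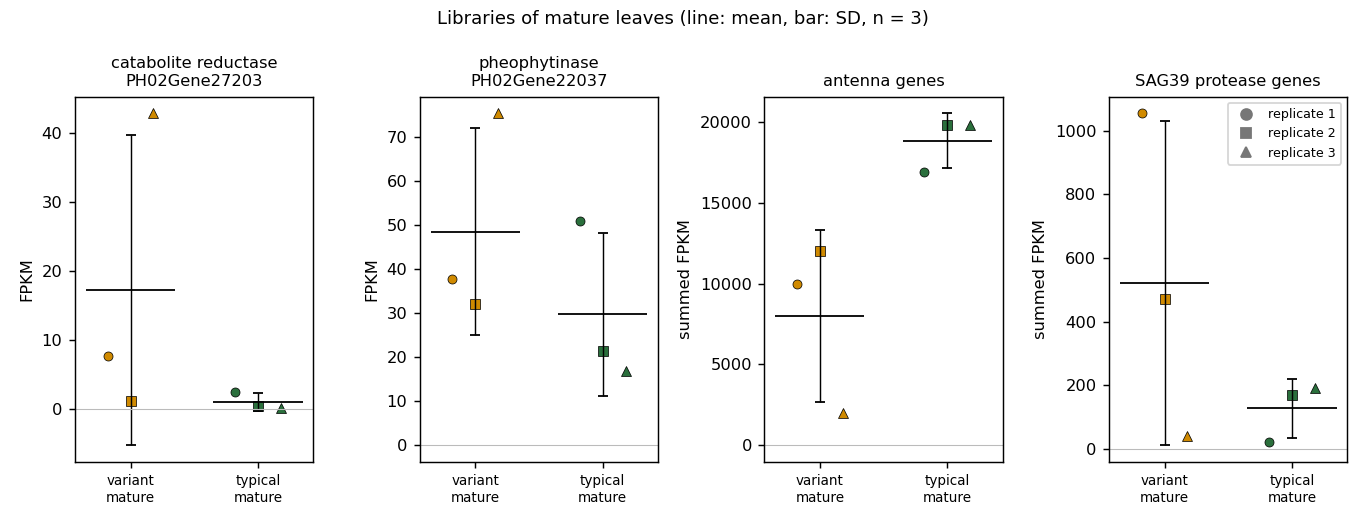
FPKM of 2 member genes and summed FPKM of antenna and SAG39 protease genes in the 6 libraries of mature leaves (line: mean, bar: SD, n = 3). Variant mature 3 and typical mature 1 hold the highest member levels and the lowest antenna and SAG39 sums of their groups.

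Of the members, all 4 rose from young to immature leaves in the variant, where edgeR called 55.6% of all genes, 27% as higher and 28.6% as lower. In the typical plant 3 rose and 1 fell, where 59.6% of all genes were called, 29.2% as higher and 30.4% as lower. At the step to mature leaves 1 rose and 1 fell in the variant, where 27.3% were called, 15.8% as higher and 11.6% as lower. In the typical plant 1 rose, where 29.4% were called, 13.2% as higher and 16.2% as lower. Between the plants, 2 members lay higher in every variant library in young leaves, where edgeR called 0.149% of all genes higher and 0.0213% lower. In immature leaves 3 lay higher and 1 lower, beside 21.7% and 23.1%, and in mature leaves 1 lay lower, beside 14.9% called higher and 9.65% called lower. Groups of FPKM values that do not overlap were common over all genes. In young leaves 14.4% of tested genes lay higher and 8.61% lower in every variant library, in immature leaves 40.8% and 17%, and in mature leaves 29.4% and 8.16%. Since that contrast is treated as used in the choice, nothing is read from these counts.

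Of the 15 other genes of the pathway, 12 were tested. From young to immature leaves edgeR called 8 higher and 2 lower in the variant, 83.3% of them beside 55.6% of all genes, with a median log2 fold change of 0.87 beside -0.06 over all genes. In the typical plant 7 were higher and 1 lower, 66.7% beside 59.6% of all genes, with a median of 1.47 beside -0.06. The pheophorbide a oxygenase gene PH02Gene03620, whose enzyme opens the ring, rose from young to immature leaves by 2.52 ± 0.26 in the variant (edgeR adjusted p = 2.01e-06) and by 3.42 ± 0.28 in the typical plant (edgeR adjusted p = 8.21e-08). A stay-green gene (PH02Gene05142), of magnesium removal, rose by 2.25 ± 0.45 in the variant and by 1.38 ± 0.44 in the typical plant (edgeR adjusted p = 0.000683 and 0.0141). The NOL gene PH02Gene17931, for a chlorophyll(ide) b reductase that acts on chlorophyll b, rose by 1.82 ± 0.40 in the variant (edgeR adjusted p = 0.00121). Its typical step was 0.17 ± 0.39 and was not called (edgeR adjusted p = 0.74). TIC 55 (PH02Gene21229), whose Arabidopsis relative hydroxylates late catabolites, rose by 1.56 ± 0.18 in the variant and by 1.55 ± 0.18 in the typical plant (edgeR adjusted p = 5.24e-06 and 3.49e-06). The hydroxymethyl chlorophyll a reductase (PH02Gene39091) is named for the last step from chlorophyll b to a. It rose by 1.00 ± 0.20 in the variant and by 2.03 ± 0.21 in the typical plant (edgeR adjusted p = 0.000776 and 9.97e-07). The stay-green like gene PH02Gene39882 rose by 0.78 ± 0.22 in the variant and by 1.82 ± 0.22 in the typical plant (edgeR adjusted p = 0.00674 and 5.1e-06). For the second oxygenase gene PH02Gene11023 the rise was 0.95 ± 0.17 in the variant and 1.57 ± 0.17 in the typical plant (edgeR adjusted p = 0.000284 and 1.96e-06). Chlorophyllase-1 (PH02Gene23339) fell by 5.53 in the variant and fell by 5.76 in the typical plant on the log2 scale (edgeR adjusted p = 0.000958 and 0.000682). It thus went the other way from chlorophyllase-2, at 10.8 ± 2.68 FPKM in variant young and 0.214 ± 0.211 FPKM in variant immature leaves.

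At the step to mature leaves edgeR called 4 higher and 3 lower in the variant and 4 higher and 2 lower in the typical plant, or 58.3% beside 27.3% of all genes and 50% beside 29.4%. The medians were 0.71 in the variant and 0.07 in the typical plant, beside 0.04 and 0.01 over all genes. TIC 55 rose by 0.87 ± 0.18 in the variant and 1.20 ± 0.18 in the typical plant (edgeR adjusted p = 0.00275 and 0.000207). The stay-green like gene PH02Gene39882 fell by 1.74 in the variant and fell by 3.11 in the typical plant (edgeR adjusted p = 0.000107 and 1.18e-06). The other NOL gene, PH02Gene44921, fell by 1.25 in the variant and fell by 1.70 in the typical plant (edgeR adjusted p = 0.0111 and 0.00145). PH02Gene17931 fell by 1.45 in the variant (edgeR adjusted p = 0.0134), and its typical step was -0.35 ± 0.40 (edgeR adjusted p = 0.546). The oxygenase PH02Gene03620 rose by 0.76 ± 0.25 in the variant and 0.69 ± 0.25 in the typical plant (edgeR adjusted p = 0.0341 and 0.0492). PH02Gene11023 rose by 0.65 ± 0.17 in the variant and 0.64 ± 0.17 in the typical plant (edgeR adjusted p = 0.0115 and 0.0105). The variant count fell to 4 of 12 without variant mature 1, beside 7570 of 38356 genes. With much alike libraries summed, which leaves 1 variant immature library, it was 0, where 5 genes had an unadjusted p under 0.05 and 0.378% of all genes were called.

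**Figure D4:**
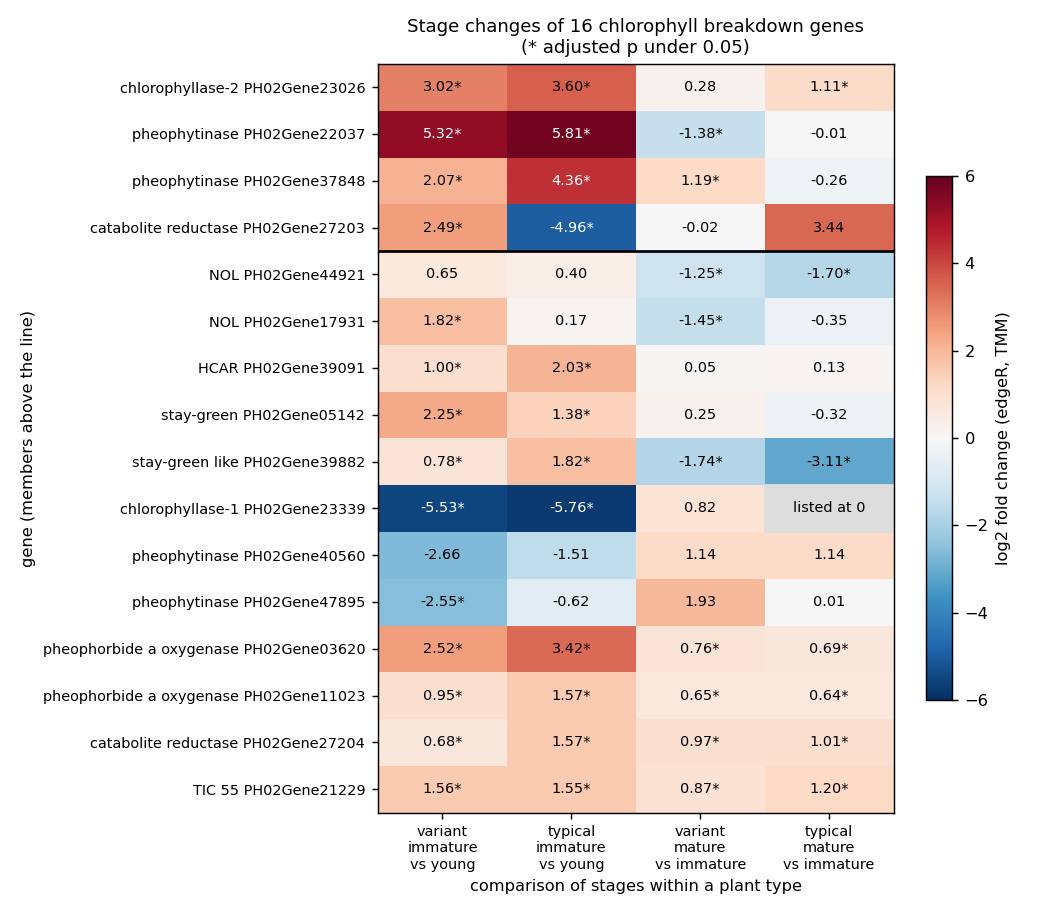
Log2 fold changes (edgeR, TMM) between consecutive stages within the variant and the typical plant for the 4 members, above the line, and 12 other chlorophyll breakdown genes, with calls at an adjusted p under 0.05 marked by an asterisk. The catabolite reductase PH02Gene27203 shows 2.49 in the variant and -4.96 in the typical plant from young to immature leaves, and the grey cell marks a gene listed at 0 in typical mature leaves.

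Between the plants, calls among the other genes of the pathway went in both directions. In young leaves edgeR called 0 of 12 (0.17% of all genes), and 1 gene had an unadjusted p under 0.05. DESeq2 and limma on FPKM also called 0, with 1 such gene in DESeq2 and 2 in limma. In immature leaves edgeR called 1 higher and 4 lower in the variant (44.9% of all genes were called), with a median of -0.39 beside -0.01. This split depended on the scaling, with 4 higher and 1 lower without TMM and a median of 0.13. Over all 37595 genes tested, 13548 were then called higher and 4733 lower. Without typical immature 3, 3 genes of the pathway were called, beside 14526 of 38253 genes. The gene called higher was the NOL gene PH02Gene17931, at 6.82 ± 1.28 FPKM in variant and 1.14 ± 0.496 FPKM in typical leaves (2.12 ± 0.40, edgeR adjusted p = 0.000641). The reductase PH02Gene39091 was lower, at 36.8 ± 0.0862 FPKM in variant and 46.5 ± 6.85 FPKM in typical leaves (-0.79 ± 0.20, edgeR adjusted p = 0.00548). Pheophytinase PH02Gene47895 was lower too (-2.45 ± 0.77, edgeR adjusted p = 0.0176), as were the stay-green like gene PH02Gene39882 (-0.58 ± 0.22, edgeR adjusted p = 0.0394) and the oxygenase PH02Gene11023 (-0.55 ± 0.17, edgeR adjusted p = 0.016).

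In mature leaves edgeR called 4 higher and 2 lower in the variant (24.5% of all genes were called). The median was -0.20 beside 0.09 over all genes. Without TMM 5 were called higher and 0 lower, beside 10165 higher and 1778 lower of 37595 genes. The stay-green gene PH02Gene05142 was at 14.5 ± 7.80 FPKM in variant and 3.55 ± 2.23 FPKM in typical leaves (1.66 ± 0.45, edgeR adjusted p = 0.0142). PH02Gene39882 was at 16.3 ± 5.18 FPKM in variant and 7.58 ± 0.132 FPKM in typical leaves (0.79 ± 0.22, edgeR adjusted p = 0.018), and PH02Gene44921 at 8.99 ± 4.12 FPKM in variant and 3.67 ± 0.370 FPKM in typical leaves (0.99 ± 0.33, edgeR adjusted p = 0.0394). Chlorophyllase-1, also called higher (edgeR adjusted p = 0.0231), was at 0 in typical libraries 1 to 3 and in variant library 3, against 55 counts over variant libraries 1 and 2. The reductase PH02Gene39091 (-0.87 ± 0.20, edgeR adjusted p = 0.00678) and the oxygenase PH02Gene11023 (-0.55 ± 0.17, edgeR adjusted p = 0.0299) were lower. The count was 3 without variant mature 1 or 2, beside 7874 of 38356 and 8458 of 38347 genes. It was 1 without typical mature 2 or 3, beside 6385 of 38218 and 6934 of 38372 genes. Without variant mature 3 and typical mature 1 together it was 7 (5 higher, 2 lower), beside 8756 of 38269 genes. When the fit held mature libraries alone it was 0 of 11, beside 2641 of 31770 genes, and 5 had an unadjusted p under 0.05.

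Stage steps of the other genes were also set against each other between the plants by the interaction term of edgeR. From young to immature leaves 3 of 12 differed, 1 higher and 2 lower in the variant, where 26.3% of all genes did, 12.5% higher and 13.9% lower. They were the NOL gene PH02Gene17931, the reductase PH02Gene39091 and the stay-green like gene PH02Gene39882. From immature to mature leaves 1 of 12 differed, PH02Gene39882, higher in the variant, where 17.4% of all genes did, 11.1% higher and 6.34% lower. With much alike libraries summed none of the 4 calls was kept, with 0.787% of all genes called at the first step and 0 genes at the second.

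Next to the members, the flanking genes had their own differences between plants. No gene of the table overlapped a member on either strand, and the nearest neighbours lay 4271 to 78915 bp away. Of the 8 neighbours, 4 were called lower and 1 higher in variant immature leaves, beside 23.1% and 21.7% of all genes. These calls come from counts scaled with TMM. Among those called lower, PH02Gene23025 beside chlorophyllase-2 (-0.50, edgeR adjusted p = 0.0264) had 7.59 FPKM in variant and 7.85 FPKM in typical immature leaves. Next to chlorophyllase-2, PH02Gene23027, described as a dihydroxy-keto-methylthiopentene dioxygenase of methionine salvage, was at -3.06 (edgeR adjusted p = 1.54e-06). Beside PH02Gene22037, which was higher in the variant, PH02Gene22036 was at -1.11 (edgeR adjusted p = 0.0173). The neighbour called higher, PH02Gene37849 beside the other pheophytinase, had 0.580 FPKM in variant immature leaves and was listed at 0 in typical immature leaves (edgeR adjusted p = 0.00391).

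Over the 18 libraries the catabolite reductase had a profile unlike those of the other members. Pearson's r of log2(CPM + 0.5), scaled with TMM, was 0.923 between chlorophyllase-2 and PH02Gene22037, 0.863 between chlorophyllase-2 and PH02Gene37848, and 0.715 between both pheophytinases. The catabolite reductase had an r of 0.218 with PH02Gene22037, 0.005 with chlorophyllase-2 and -0.381 with PH02Gene37848. The libraries share stages and plants, so these values are descriptive. Among 28778 other genes, those most like chlorophyllase-2 were described as the Calvin cycle protein CP12-2 (PH02Gene31874), NAC domain protein 35 (PH02Gene31596) and a probable ubiquitin ligase RHB1A (PH02Gene16276), each with an r of 0.989. Most like PH02Gene22037 were a peroxidase 1-like gene (PH02Gene36795, 0.988), sulfate transporter 3.1 (PH02Gene03554, 0.986) and TIFY 11d (PH02Gene17761, 0.985). Most like PH02Gene37848 were an uncharacterized gene (PH02Gene36768, 0.994), a chloroplast DnaJ C76 chaperone (PH02Gene24868, 0.993) and a mitochondrial glycine dehydrogenase (PH02Gene05060, 0.991). The catabolite reductase had looser matches, a hypothetical protein (PH02Gene06580, 0.936), a gene described as COLM (PH02Gene28016, 0.936) and a putative pumilio homolog 7 (PH02Gene33431, 0.935).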

How the data were processed

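Per the labels' protocols, full-length cDNA made with an oligo(dT) primer was amplified by PCR, cut by enzymes and ligated to adapters, with no strand mark or molecular identifier described. The authors deposited an estimated count and an FPKM value per gene and library, per the file headers, and Salmon, FastQC and cutadapt are listed in the submitters' processing notes. The genome build is not given in the sources used here, and coordinates are those of the deposited table. Estimated counts, deposited as whole numbers, were used as whole numbers. The test was edgeR's quasi-likelihood F test (edgeR 4.0.16, R 4.3.3), fitted to all 18 libraries with a mean for each of 6 groups, filterByExpr (minimum count 10, total 15), TMM and Benjamini-Hochberg adjustment over 37595 genes. The standard error is the log2 fold change over the root of F. Scaling by TMM gave factors of 1.03 to 1.18, except for typical immature (0.75 to 0.798) and typical mature libraries (0.8 to 0.859), and FPKM as deposited carry no such factor. Without TMM the median of all genes moved to 0.43 for variant over typical in immature and in mature leaves and to -0.57 for typical immature over young. Alternatives were DESeq2 1.42.0, limma 3.58.1 on log2(FPKM + 0.5) or log2(FPKM + 0.1), no TMM, no filter, only the groups compared, a replicate block, each library left out, and libraries that were much alike (dispersion under 0.005) summed. Leaving out variant mature 3 and typical mature 1 together was added after seeing the data. No pair of libraries agreed within sampling noise. Fits were tested on simulated data. The members and lists were chosen with earlier results of these data known, and the values used in the choice are not recorded. The text names the members and other pathway genes called (up to 6 per comparison, largest first). Stage steps of those genes are given for both plants. Also named are 3 genes most like each member with a mean FPKM of at least 1, and nearest neighbours. The search term for stay-green also took phospholipase SGR2, which was dropped.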

Additional observations from a re-analysis of the deposited data

Results flagged for a closer look

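The catabolite reductase PH02Gene27203 went opposite ways from young to immature leaves in the 2 plants. Every immature library lay above every young one in the variant and below every young one in the typical plant. The difference between the steps was 7.45 on the log2 scale. This difference was not tested, since differences between the plants are treated as used in choosing the gene.

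Among the other genes of the pathway, 3 of 12 changed differently between young and immature leaves in the 2 plants by the interaction term of edgeR, beside 26.3% of all genes. The variant step exceeded the typical step by 1.66 for the NOL gene PH02Gene17931 (edgeR adjusted p = 0.0375). The step differed by -1.03 for the hydroxymethyl chlorophyll a reductase PH02Gene39091 (edgeR adjusted p = 0.0162) and by -1.04 for the stay-green like gene PH02Gene39882 (edgeR adjusted p = 0.0211). From immature to mature leaves 1 of 12 differed, beside 17.4% of all genes, PH02Gene39882 at 1.37 (edgeR adjusted p = 0.00903).

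None of these 4 calls was kept with much alike libraries summed (edgeR adjusted p = 0.247 to 0.39), where 0.787% of all genes were called at the first step and 0 genes at the second. Without TMM the first step of PH02Gene39091 differed by -0.57 and that of PH02Gene39882 by -0.59 (edgeR adjusted p = 0.145 and 0.146). PH02Gene17931 missed the threshold in 8 and PH02Gene39882 at the first step in 3 of 18 fits without 1 library. PH02Gene17931 also missed it with the replicate block (edgeR adjusted p = 0.0519). At the first step PH02Gene39091 and PH02Gene39882 missed it in limma on log2(FPKM + 0.5) (limma adjusted p = 0.0963 and 0.104). The same held on log2(FPKM + 0.1) (limma adjusted p = 0.0979 and 0.11).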

How the results depend on the processing

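No called result changed sign under the alternatives run. Stage steps of the members that moved across the threshold were the following. For PH02Gene22037, variant mature against immature, the value was -1.38 with no filter (edgeR adjusted p = 0.0513) and -1.43 with much alike libraries summed (0.197), and -1.82 to -1.17 over single libraries left out. For PH02Gene27203, variant immature against young, it was 2.43 without TMM (0.0502) and 2.53 with libraries summed (0.21), and 2.32 to 2.73 over single libraries left out. For its typical mature against immature step it was 3.49 in DESeq2 (adjusted p = 0.00877), with 1.59 to 4.13 over single libraries left out, where 3 of 18 edgeR fits passed (without variant mature 2, variant mature 3 or typical mature 3, adjusted p = 0.0244 to 0.0341), and its variant step was -1.95 without variant mature 3 and typical mature 1 (edgeR adjusted p = 0.0485). For PH02Gene37848, variant mature against immature, it was 1.15 with libraries summed (edgeR adjusted p = 0.19).

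Differences between plants moved by more than the replicate SD with the scaling. In immature leaves they were 2.23 for PH02Gene22037, 0.93 for PH02Gene23026, 7.65 for PH02Gene27203 and -1.94 for PH02Gene37848 without TMM. On log2(FPKM + 0.5) they were 2.15, 0.84, 4.96 and -1.81, and on log2(FPKM + 0.1) 2.16, 0.86, 6.70 and -1.91. In mature leaves PH02Gene23026 was at -0.080, -0.10 and -0.10 and PH02Gene37848 at -0.67, -0.67 and -0.69 under these settings, and -0.26 and -0.84 without variant mature 3 and typical mature 1. Leaving out single libraries gave 1.81 to 3.02 for PH02Gene22037 and -0.54 to -0.13 for PH02Gene27203 in young, 6.54 to 7.85 for PH02Gene27203 in immature and 1.77 to 5.55 in mature leaves.

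Counts among the 12 other genes were 1 in immature and 0 in mature leaves between plants, 3 for typical and 0 for variant mature against immature leaves with libraries summed, where 2, 4, 6 and 5 genes had an unadjusted p under 0.05. Summing leaves 1 library in typical young and in variant immature and 2 in typical mature leaves, and the lone libraries are assumed to vary like the other groups. All genes called then came to 14.4%, 6.75%, 13.7% and 0.378% in these comparisons. With only the groups compared, the mature count between plants was 0, beside 2641 of 31770 genes. That of variant mature against immature was 4, beside 7169 of 32842 genes. Over single libraries left out the counts were 3 to 6 and 1 to 6 between plants in immature and mature leaves and 4 to 8 for variant mature against immature. The cause was not tested. The labels give the groups the same replicate numbers, but the numbers do not pair the samples (correlations of -0.0998 to 0.156 over 45 same-numbered pairs, 7 of 18 libraries correlating best with their own number). With the replicate block the variant step of PH02Gene27203 was 2.58 (edgeR adjusted p = 0.0535), and no other call of a member changed. PH02Gene27203 did not pass the filter with only typical immature and mature libraries in the fit, so that step has no such value. The counting depth limits PH02Gene27203 most, with 7 counts in typical immature leaves.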
